A study of Mus musculus with 12 samples.

Results

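The mRNA levels of autophagy and lysosome genes were followed over the day in mouse liver. The genes were chosen by name: 36 symbols were listed, and the 33 with a row of that symbol among the 20069 genes of the deposited table are described here. *Atg13*, *Atg14* and *Tfeb* had no row under these symbols. All livers came from wild-type adult male C57BL/6 mice aged 3 to 6 months that had spent at least 2 weeks in a cycle of 12 hr of light and 12 hr of darkness. RNA was taken every 4 hr, from ZT2 to ZT22 (ZT0 is lights on), in 2 independent series. Each of the 6 time points has n = 2, and samples of different time points come from different animals. How many livers entered a sample is not stated, and the p-values below measure the spread between these samples.

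Autophagy encloses a portion of cytoplasm in a membrane that closes into an autophagosome and then fuses with a lysosome, where hydrolases break the content down. ULK kinases start the process, a class III PI3 kinase marks the membrane, the ATG conjugation enzymes attach LC3 and GABARAP proteins to it, and cargo receptors tie the material to be degraded to these proteins. Liver is a classical tissue for the study of autophagy, which supplies it with amino acids and other fuel during fasting, and laboratory mice feed mainly in the dark.

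The values are mean read coverage per base pair of exon (rpbp, the deposited signal per 10000000 uniquely mapped sequences multiplied by 4), so that levels may be compared between genes. Summed over all genes, the signal on the deposited scale lay between 371867 and 386529 per sample, and the numbers of mapped sequences that the study lists for each sample were not used here. Samples of the same time point correlated across genes with r between 0.975 and 0.987, against a median of 0.961 between time points. Genes with a value over 8 rpbp in 1 or more of the 12 samples were taken as expressed, which held for 10198 genes and all 33 members. *Pik3r4* passed this minimum most narrowly, with a highest value of 8.76 rpbp. The hepatocyte markers were by far the most abundant of the cell type markers, as the tissue label has it. The muscle markers *Acta1* and *Ckm* summed to 10.2 rpbp in the ZT18 sample of series 1 and to at most 0.24 rpbp in every other sample. The 2 pancreas markers of the list had no row.

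Autophagy and lysosome genes were called rhythmic at a share near that of all expressed genes. By the criteria of the study (permutation p below 0.05, F24 above 0.45 and a highest value more than 1.5 times the lowest, where F24 is the share of the variance that a 24 hr cosine takes up), 5 of the 33 were called, which is 15.2%. Among all expressed genes 19.2% were called, and the share of members is close to this background. The called genes were *Bnip3*, *Sqstm1*, *Ctsl*, *Gabarapl1* and *Wipi1*. Rhythms that also passed the study's stricter minimums for a strong rhythm (F24 above 0.6 and a larger amplitude) were found in *Bnip3* alone among the members and in 7.89% of expressed genes. After Benjamini-Hochberg adjustment over the 10198 genes, *Bnip3* and *Sqstm1* were the 2 called members with a p below 0.05, against 4.95% of all genes. Without the minimum for amplitude, *Ctsb*, *Lamp2*, *Pik3r4* and *Wipi2* joined the 5 called genes, and the 9 members (27.3%) stood beside 26.3% of all genes.

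Models fitted with limma on log2(rpbp + 1) gave counts of the same order. A 24 hr cosine was called at an adjusted p below 0.05 in *Bnip3*, *Sqstm1* and *Wipi2*, 3 of 33 members (9.09%), against 9.22% of expressed genes. A test for any difference among the 6 time points called *Atg3*, *Atg7*, *Bnip3*, *Ctsl*, *Sqstm1* and *Wipi1*, 6 members (18.2%), against 20.4%. Leaving out single samples gave 3 to 6 members by the rhythm criteria and 3 to 7 by the test among time points. With both ZT2 samples left out, an alternative added after the data were seen and not run for other time points, the rhythm criteria called 2 members (*Bnip3* and *Sqstm1*), the cosine *Bnip3* alone, and the test among time points 2 (*Atg7* and *Bnip3*).

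Most of the 28 members that were not called varied little. In 19 of them the highest value was at most 1.5 times the lowest, and in 24 the permutation p was 0.05 or more. The median of highest over lowest was 1.42 among members and 1.64 among all expressed genes. The median F24 was 0.260 and 0.31, and the median peak-to-trough difference of the fitted cosine was 0.22 and 0.29 on the log2 scale. Members were also measured with less spread, since their median SD between samples of a time point was 7.59% of the mean, against 10.8%. Their median mean level, 59.4 rpbp, was above the 22.9 rpbp of all expressed genes, and 24 of the 33 lay above that median.

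**Figure D1:**
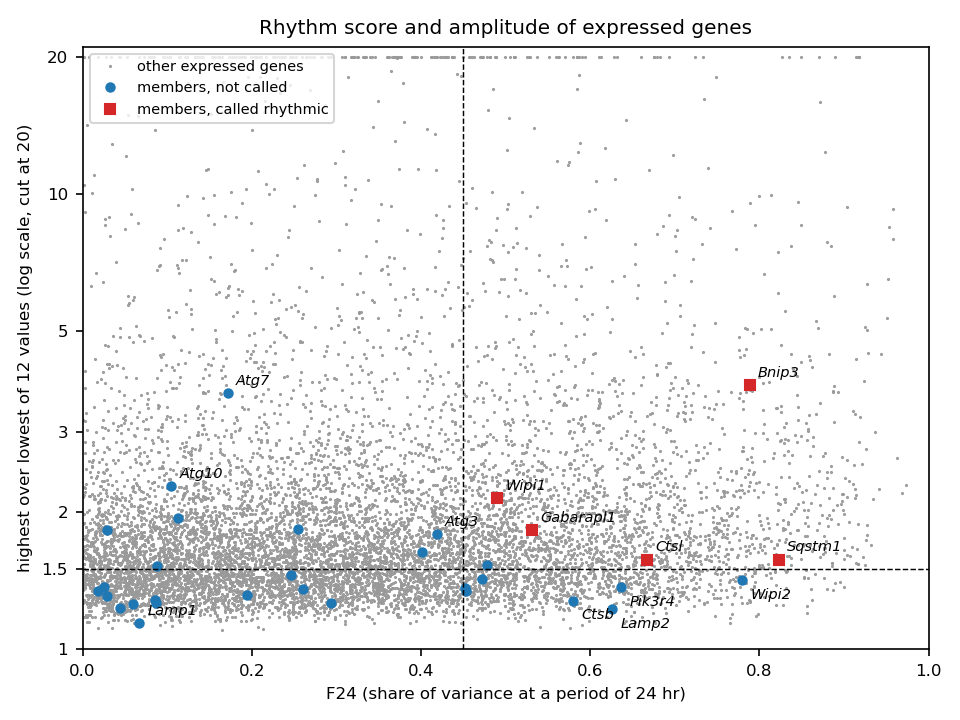
F24 (horizontal axis, share of variance) and highest over lowest of the 12 values (vertical axis, log scale) of each expressed gene, with genes above 20 drawn at 20; red squares are the 5 members called rhythmic, blue circles the 28 others, grey points all other expressed genes, and dashed lines the minimums of 0.45 and 1.5. *Bnip3* lies far up on the right, *Sqstm1* and *Ctsl* lie just above the amplitude minimum, and *Atg7* has a large amplitude with a low F24.

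The levels followed the roles of the genes. The 5 lysosomal members had means of 308 rpbp or more, and the 19 members that start autophagy, supply membrane or conjugate proteins had means of 74 rpbp or less. *Lamp1*, a heavily glycosylated protein of the lysosomal membrane, was the highest, at 837 ± 33 rpbp (SD, n = 12), and its lowest sample (775 rpbp) stood above the highest sample of the next gene, *Ctsl* (638 rpbp). *Ctsl*, *Ctsd*, *Gabarapl1*, *Gabarap* and *Sqstm1* followed at means between 406 and 513 rpbp, with ranges that overlapped from each to the next. *Ctsb* (335 ± 21.8), *Lamp2* (308 ± 16.8) and *Bnip3* (276 ± 103) came next, and *Map1lc3b* at 157 ± 12.4 rpbp stood above *Nbr1* in all samples. Further down the order, the ranges of all neighbours overlapped. The lowest were *Atg4c* at 7.99 ± 1.49 rpbp, *Pik3r4* at 7.63 ± 0.745 rpbp and *Atg10* at 6.58 ± 1.45 rpbp.

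**Figure D2:**
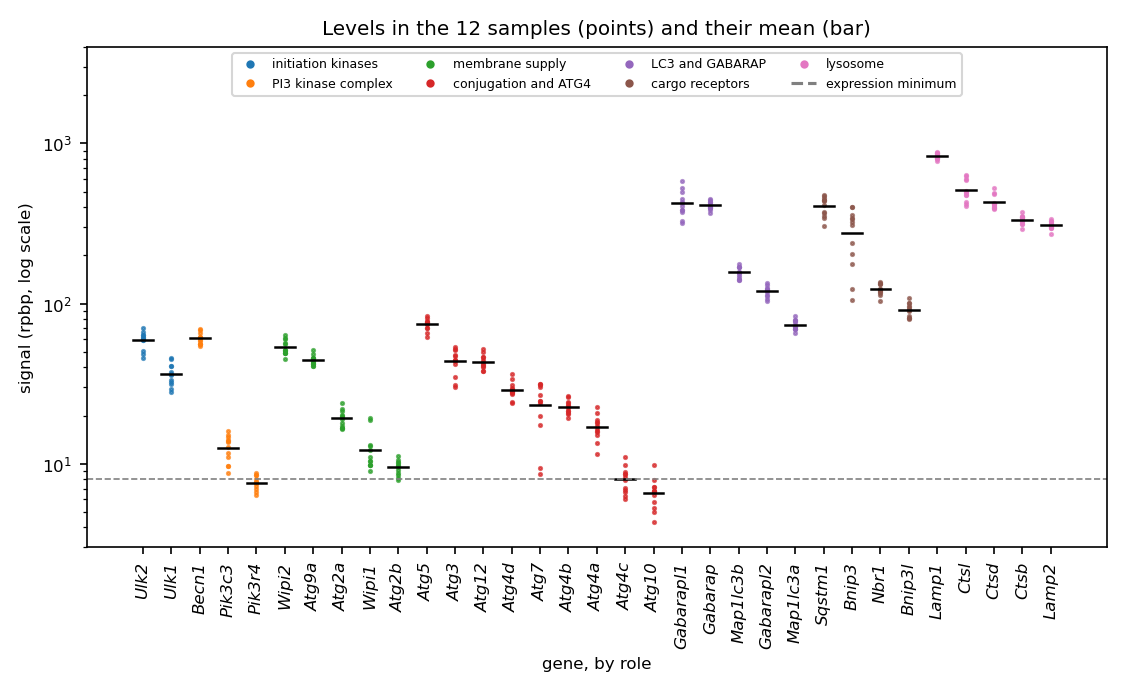
Signal (vertical axis, rpbp, log scale) of the 33 genes ordered by role and by mean; each point is 1 of the 12 samples, bars are the means, and the dashed line is the minimum of 8 rpbp. The lysosomal genes, *Sqstm1*, *Gabarap* and *Gabarapl1* form the upper group, and *Bnip3* has the widest range of the abundant genes.

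Both called members with an adjusted permutation p below 0.05 encode cargo receptors. *Bnip3*, a mitochondrial outer membrane protein that binds LC3 and marks mitochondria for removal, had 123 and 106 rpbp at ZT2 in series 1 and 2, 324 and 336 (ZT6), 402 and 399 (ZT10), 307 and 359 (ZT14), 341 and 240.4 (ZT18), and 177 and 203 rpbp (ZT22). The ZT2 samples lay below and the ZT10 samples above all 10 others, and the means of these time points, 114 ± 12 and 400.4 ± 1.98 rpbp (SD, n = 2), differed 3.5-fold. Its F24 was 0.788 with a phase of 11.6 hr (permutation p = 0.0017, adjusted p = 0.0378), and limma gave a peak-to-trough difference of 1.5 ± 0.27 on the log2 scale (SE, adjusted p = 0.0142). Without the ZT2 samples its F24 was 0.817 (adjusted permutation p = 0.0596) and the fitted difference 0.98 (limma adjusted p = 0.0148). The gene lies on chromosome 7 at 146082519 to 146101202 (mm9, minus strand). Its promoter, from 250 bases before to 50 after the start of the gene (RefSeq, GRCm38.p6, chr7:138909457-138909756, minus strand), is shown because this gene has the largest rhythm of the 33, and the capitals mark an E-box, CACGTG, which begins at position -108 from the start.
Bnip3: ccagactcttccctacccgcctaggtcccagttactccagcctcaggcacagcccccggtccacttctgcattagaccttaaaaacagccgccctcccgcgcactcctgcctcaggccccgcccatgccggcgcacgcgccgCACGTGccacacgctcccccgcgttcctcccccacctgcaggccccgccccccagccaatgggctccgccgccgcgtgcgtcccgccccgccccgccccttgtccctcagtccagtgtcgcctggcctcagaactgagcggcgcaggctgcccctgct

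*Bnip3l* (NIX), its paralog with a similar role, had 83.1 and 81.2 (ZT2), 96.8 and 100.3 (ZT6), 95 and 109 (ZT10), 90.8 and 80.3 (ZT14), 100.4 and 89.3 (ZT18), and 91.9 and 81.5 rpbp (ZT22). The ZT2 samples lay below those of ZT6, ZT10 and ZT18, and no test called the gene (F24 0.260, permutation p = 0.25, limma adjusted p = 0.454 for the cosine). The ratio of *Bnip3* to *Bnip3l* was therefore lowest at ZT2, at 1.48 and 1.30, and reached 4.23 and 3.66 at ZT10 and 3.38 and 4.47 at ZT14. *Sqstm1* (p62), which binds ubiquitin-tagged proteins and is itself degraded with them, ran the other way. It had 458 and 478 (ZT2), 442 and 442 (ZT6), 304 and 350.0 (ZT10), 343 and 371 (ZT14), 369 and 412 (ZT18), and 435 and 471 rpbp (ZT22). The 6 samples at ZT22, ZT2 and ZT6 were all above the 6 others. Its F24 of 0.823 was the highest of the members, with a phase of 0.803 hr (permutation p = 0.0007, adjusted p = 0.0261), and the limma cosine had a peak-to-trough difference of 0.51 ± 0.10 (log2, SE, adjusted p = 0.0193). The amplitude of 1.57 was close to the minimum. Taken from time point means it was 1.43, and without the ZT10 sample of series 1 it was 1.39. In neither setting was the gene called. The limma adjusted p of the cosine was 0.0512 without the ZT22 sample of series 2. The limma difference among time points (adjusted p = 0.0236) was lost without any 1 of the ZT2 or ZT6 samples or the ZT10 sample of series 1, with adjusted p between 0.0505 and 0.0734. *Sqstm1* (chromosome 11, 50012868 to 50024329, mm9) shares 17.3% of its exon bases with *3010026O09Rik* on the other strand, and strand was not used in the counting. That gene was at 3.24 to 14.8 rpbp and was itself called rhythmic with a phase of 2.28 hr. *Nbr1*, another ubiquitin-binding receptor, lay between 104 and 137 rpbp with an F24 of 0.195 and was not called.

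**Figure D3:**
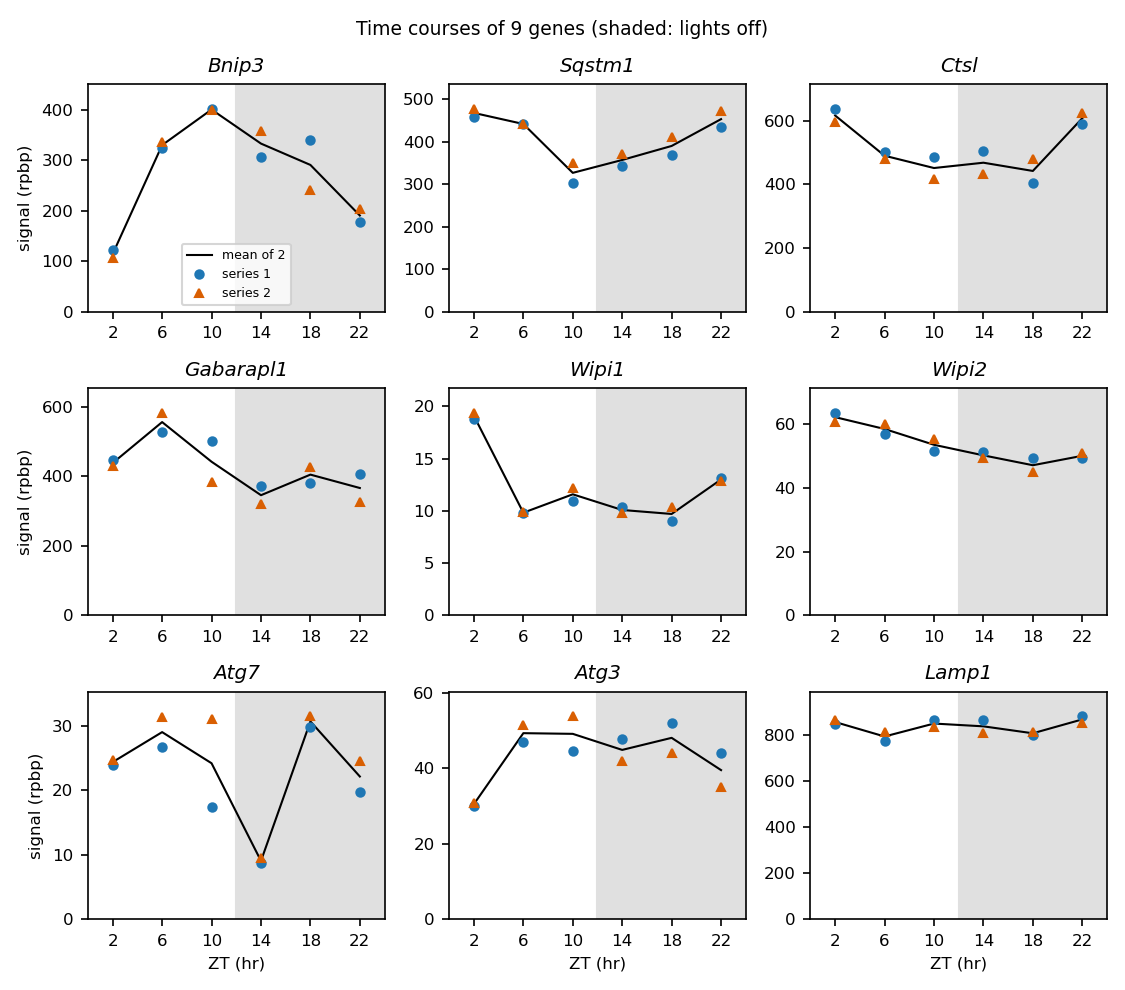
Signal (vertical axes, rpbp) against time point (horizontal axes, ZT in hr) for the 8 members called by at least 1 of the rhythm criteria, the cosine or the test among time points, and for *Lamp1*; circles are series 1, triangles series 2, lines the mean of both, and grey marks darkness. *Bnip3* is lowest at ZT2 and highest at ZT10, *Sqstm1* is lowest at ZT10, *Wipi1* stands out at ZT2 and *Atg7* is low at ZT14 in both series.

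In the LC3 and GABARAP family, the ubiquitin-like proteins attached to autophagosome membranes, 1 of 5 members was called. *Gabarapl1* had 447 and 429 (ZT2), 528 and 583 (ZT6), 501 and 382 (ZT10), 371 and 319 (ZT14), 382 and 427 (ZT18), and 405 and 327 rpbp (ZT22). Both ZT6 samples lay above all others, and the means were 556 ± 38.7 rpbp at this time and 345 ± 36.8 rpbp at ZT14, the lowest. Its F24 was 0.531 with a phase of 5.76 hr (permutation p = 0.0336, adjusted p = 0.155), and limma did not call the cosine (peak-to-trough difference 0.51 ± 0.16, adjusted p = 0.117). This call rested on single samples: the permutation p was between 0.0509 and 0.108 without either ZT6 sample, either ZT14 sample, or the series 1 sample of ZT18 or ZT22. With size factors in place of the deposited scaling it was 0.0524. Limma called its difference among time points (adjusted p = 0.0655 with all samples) without either ZT10 sample or the ZT22 sample of series 1, with adjusted p between 0.0356 and 0.0485.

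The other 4 family members were not called. *Gabarap*, at 409.9 ± 25.1 rpbp about as abundant as *Gabarapl1*, stayed between 367 and 453 rpbp (F24 0.044), so that the ratio of *Gabarapl1* to *Gabarap* was 1.44 and 1.32 at ZT6 and 0.865 and 0.811 at ZT14. *Map1lc3b*, the LC3 most often used to follow autophagosomes, lay between 140.0 and 177 rpbp (F24 0.294). *Map1lc3a* was the lowest of the family, with 65.5 and 69.2 (ZT2), 78.8 and 79.1 (ZT6), 69.6 and 71.1 (ZT10), 69.1 and 77.8 (ZT14), 84 and 76.5 (ZT18), and 73.7 and 71.9 rpbp (ZT22), with the ZT2 samples below those of ZT6, ZT10, ZT18 and ZT22, and no test called it (F24 0.086). *Gabarapl2* lay between 103 and 135 rpbp (F24 0.029). Summed over the family, the signal was between 1070.5 and 1365 rpbp. Genes of this family and *Bnip3* have related copies elsewhere in the genome, and only sequences with a unique place were counted, so their absolute levels are less certain.

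Of the 5 genes that supply membrane to the growing phagophore, *Wipi1* was called rhythmic and *Wipi2* was called by limma. Both encode proteins that bind the lipid made by the class III PI3 kinase. *Wipi1* had 18.8 and 19.4 (ZT2), 9.8 and 9.84 (ZT6), 11 and 12.2 (ZT10), 10.4 and 9.76 (ZT14), 9.04 and 10.4 (ZT18), and 13.2 and 12.8 rpbp (ZT22). The ZT2 samples stood clear of the others, and the ZT22 samples came next. The F24 was 0.490 with a phase of 1.56 hr (permutation p = 0.0292, adjusted p = 0.145), and limma called the difference among time points (adjusted p = 0.00334) but not the cosine (0.64 ± 0.20 log2, adjusted p = 0.13). Without both ZT2 samples the F24 was 0.189 and the limma adjusted p among time points was 0.189. The rhythm call was also lost without any 1 of 6 single samples, namely either sample of ZT2 or ZT18, the series 1 sample of ZT10 or the series 2 sample of ZT14, with permutation p between 0.0539 and 0.0869.

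*Wipi2* was 3.13 to 6.12 times as abundant and changed more gently. It had 63.7 and 60.8 (ZT2), 56.8 and 60.2 (ZT6), 51.6 and 55.5 (ZT10), 51.2 and 49.3 (ZT14), 49.4 and 44.9 (ZT18), and 49.3 and 50.9 rpbp (ZT22). Its F24 of 0.779 was among the highest (permutation p = 0.0016, adjusted p = 0.0368), but the highest value was 1.42 times the lowest, under the minimum. The limma cosine had a peak-to-trough difference of 0.36 ± 0.08 (log2, adjusted p = 0.038), which missed the threshold without any 1 of 9 samples (adjusted p between 0.0517 and 0.0902) and with the series as a block (0.0587). Its difference among time points had an adjusted p of 0.0529, and of 0.0403 with a minimum of 16 rpbp. *Atg2b*, a lipid transfer protein, was the lowest of this role, with 10.3 and 11.2 (ZT2), 8.48 and 8.12 (ZT6), 8.76 and 7.88 (ZT10), 9.84 and 9.6 (ZT14), 9.72 and 10.1 (ZT18), and 10.6 and 9.08 rpbp (ZT22) (F24 0.472, permutation p = 0.0621). Its paralog *Atg2a* was between 16.5 and 24.1 rpbp, and *Atg9a*, the membrane protein of vesicles that seed the phagophore, between 40.7 and 51.2 rpbp. Neither was called by any of the tests.

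The kinases that start autophagy were not called with all samples. *Ulk1* and *Ulk2* are paralogs that act under mTORC1 and AMPK. *Ulk2* had 66.8 and 70.5 (ZT2), 50.6 and 46 (ZT6), 60.4 and 48.8 (ZT10), 59.5 and 59.2 (ZT14), 63.6 and 61.4 (ZT18), and 64.1 and 62.2 rpbp (ZT22). *Ulk1* had 36.4 and 31.3, 40.6 and 45, 37.3 and 41, 45.7 and 29.3, 33.5 and 28, and 35.6 and 32.3 rpbp at the same times. The mean of *Ulk2* was highest at ZT2 and lowest at ZT6, where that of *Ulk1* was highest. The ratio of *Ulk2* to *Ulk1* was 1.83 and 2.25 at ZT2 and 1.24 and 1.02 at ZT6. The permutation p was 0.0581 for *Ulk2* and 0.103 for *Ulk1*. *Ulk2* was called with size factors (F24 0.492, permutation p = 0.0484) or without the ZT10 sample of series 1 (F24 0.610), and *Ulk1* without the ZT14 sample of series 1 (F24 0.610, permutation p = 0.0305). Limma gave *Ulk2* an adjusted p of 0.058 among time points, and called it with a minimum of 16 rpbp (0.0476) or without the ZT10 sample of series 1 (0.0232) or series 2 (0.038).

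In the class III PI3 kinase complex, *Becn1* (Beclin 1, its regulatory subunit) had 68.5 and 69.2 (ZT2), 54.7 and 55.8 (ZT6), 65.7 and 62 (ZT10), 58.8 and 61.3 (ZT14), 55.8 and 58.4 (ZT18), and 55.7 and 61.7 rpbp (ZT22). It was not called (F24 0.087), and 43.9% of its exon bases in the annotation are shared with *Cntd1* on the other strand, which was at 12.4 to 20.1 rpbp. The mean of *Cntd1* too was highest at ZT2 (17.9 rpbp) and lowest at ZT6 (12.6 rpbp). *Pik3c3*, the catalytic subunit VPS34, was between 8.76 and 16.1 rpbp. *Pik3r4*, the scaffold subunit VPS15, had 8.52 and 8.52 (ZT2), 8.76 and 7.64 (ZT6), 7.28 and 6.96 (ZT10), 7.6 and 6.4 (ZT14), 6.64 and 7.64 (ZT18), and 7.56 and 8.04 rpbp (ZT22). Its F24 was 0.636 (permutation p = 0.0139, adjusted p = 0.0998) at a highest over lowest of 1.37, so it was not called.

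None of the 9 conjugation enzymes and ATG4 proteases met the rhythm criteria, but limma found differences among time points in 2 of them. *Atg7* is the E1-like enzyme that activates both ATG12 and the LC3 proteins. It had 24 and 24.8 (ZT2), 26.8 and 31.4 (ZT6), 17.4 and 31.1 (ZT10), 8.64 and 9.44 (ZT14), 29.9 and 31.5 (ZT18), and 19.7 and 24.6 rpbp (ZT22). The ZT14 samples lay below all others, and the means of ZT14 and ZT18, 9.04 ± 0.566 and 30.7 ± 1.13 rpbp, differed 3.4-fold. A dip at a single time point is poorly described by a cosine (F24 0.172, permutation p = 0.435), while limma called the difference among time points (adjusted p = 0.00644, and 0.0215 without the ZT2 samples). *Atg7* lies on chromosome 6 at 114593149 to 114810431 (mm9, plus strand).

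*Atg3*, the E2-like enzyme that hands LC3 to its lipid, had 30.1 and 30.9 (ZT2), 47 and 51.6 (ZT6), 44.5 and 53.8 (ZT10), 47.9 and 41.9 (ZT14), 52 and 44.2 (ZT18), and 44 and 35 rpbp (ZT22). The ZT2 samples lay below all 10 others (limma adjusted p = 0.037 among time points, F24 0.418, permutation p = 0.0949). This call was lost without any 1 of the ZT2, ZT6 or ZT14 samples or the series 1 sample of ZT18 (adjusted p between 0.0518 and 0.163), and without the expression minimum (0.0708) or with the series as a block (0.055). Its promoter (RefSeq, GRCm38.p6, chr16:45158579-45158878, plus strand) is shown because it holds 2 E-boxes, at positions -94 and -71, the second within TCACGTGA.
Atg3: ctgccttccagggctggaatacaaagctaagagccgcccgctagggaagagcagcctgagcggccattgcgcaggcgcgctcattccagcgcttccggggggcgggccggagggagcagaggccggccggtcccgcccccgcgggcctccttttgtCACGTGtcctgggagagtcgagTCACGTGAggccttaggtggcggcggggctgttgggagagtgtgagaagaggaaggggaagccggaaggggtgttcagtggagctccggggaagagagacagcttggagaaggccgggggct

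The remaining conjugation genes were not called by any of the tests with all samples, and *Atg4a* met the rhythm criteria without the ZT10 sample of series 2 (F24 0.575, permutation p = 0.0283). *Atg5*, whose product is joined to ATG12, was the highest, with 70.8 and 65.4 (ZT2), 75 and 81.5 (ZT6), 76.3 and 76.4 (ZT10), 78 and 62.1 (ZT14), 83.1 and 70.2 (ZT18), and 75.4 and 74.2 rpbp (ZT22), and its F24 of 0.018 was the lowest of all members. *Atg10*, the E2-like enzyme of the ATG12 reaction, had 4.96 and 7.88 (ZT2), 6.4 and 7.16 (ZT6), 6.8 and 9.84 (ZT10), 5.76 and 4.32 (ZT14), 6.72 and 6.72 (ZT18), and 7.12 and 5.32 rpbp (ZT22). The SD between samples of a time point was 21.3% of the mean, the largest among the 33 members. *Atg12* lay between 37.8 and 51.7 rpbp. Among the ATG4 proteases, which trim LC3 and GABARAP proteins and release them from lipid, *Atg4d* (28.9 ± 3.53 rpbp) and *Atg4b* (22.7 ± 2.23) were above *Atg4a* (17.0 ± 2.98) and *Atg4c* (7.99 ± 1.49), and their sum stayed between 68.5 and 88.8 rpbp. *Atg4d* shares 31.1% of its exon bases with *Kri1* on the other strand, which was at 10.6 to 16.1 rpbp. Both ZT2 samples of *Kri1* (16 and 16.1 rpbp) lay above all its others.

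Of the 5 lysosomal members, *Ctsl* was called rhythmic. Cathepsin L, a cysteine protease, had 638 and 596 (ZT2), 501 and 479.6 (ZT6), 487 and 416 (ZT10), 504 and 432 (ZT14), 406 and 479 (ZT18), and 591 and 625 rpbp (ZT22). The 4 samples of ZT22 and ZT2 were above the 8 others, and its F24 was 0.667 with a phase of 0.627 hr (permutation p = 0.0113, adjusted p = 0.0916). The amplitude was 1.57, and taken from time point means it was 1.39 and the gene was not called. Limma gave an adjusted p of 0.042 among time points and of 0.0607 for the cosine (0.49 ± 0.12, log2), which was called without the ZT14 or the ZT18 sample of series 1 (0.0366 and 0.035). The difference among time points was lost without any 1 of 9 samples (all but those of ZT10 and ZT14 in series 1 and ZT18 in series 2), with adjusted p between 0.0536 and 0.132, and also with the series as a block (0.0611) or without the expression minimum (0.0741). Without both ZT2 samples the F24 was 0.525 (permutation p = 0.0745). Its promoter (RefSeq, GRCm38.p6, chr13:64370471-64370770, minus strand) is shown as that of the rhythmic lysosomal member and has an E-box at position -236. The start it is set on lies 252 bases inside the RefSeq gene, so this E-box is within the gene.
Ctsl: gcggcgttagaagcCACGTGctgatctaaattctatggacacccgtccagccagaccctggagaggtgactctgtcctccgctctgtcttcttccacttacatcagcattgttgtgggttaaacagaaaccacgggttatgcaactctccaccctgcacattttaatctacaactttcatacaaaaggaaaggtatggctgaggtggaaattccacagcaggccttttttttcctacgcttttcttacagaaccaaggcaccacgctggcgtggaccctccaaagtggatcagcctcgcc

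The other lysosomal genes were not called and had highest values of at most 1.34 times the lowest. *Lamp1* had 849 and 866 (ZT2), 775 and 815 (ZT6), 868 and 834 (ZT10), 867 and 812 (ZT14), 802 and 816 (ZT18), and 883 and 856 rpbp (ZT22), and its highest over lowest of 1.14 was the smallest of the 33 members (F24 0.067). *Lamp2*, the second main protein of the lysosomal membrane and a part of chaperone-mediated autophagy, had 326 and 326 (ZT2), 317 and 313 (ZT6), 296 and 295 (ZT10), 308 and 274 (ZT14), 302 and 304 (ZT18), and 335 and 302 rpbp (ZT22). It followed a cosine closely (F24 0.626, permutation p = 0.0106) at a highest over lowest of 1.22. A separate row spelled in capitals, LAMP2, was at 13.4 to 20.9 rpbp and was not added to it. *Ctsb*, cathepsin B, lay between 292 and 372 rpbp (F24 0.579, permutation p = 0.0213, highest over lowest 1.28) and shares 16.2% of its exon bases with *Fdft1*. *Ctsd*, the aspartic protease cathepsin D, lay between 392 and 526 rpbp with its 3 highest samples at ZT6 and ZT10 (F24 0.454, permutation p = 0.0662). The ratio of *Ctsl* to *Ctsd* ranged from 0.791 in the series 2 sample of ZT10 to 1.62 in the series 1 sample of ZT2.

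The promoters of *Lamp1* (RefSeq, GRCm38.p6, chr8:13158911-13159210, plus strand) and *Ctsd* (chr7:142387778-142388077, minus strand) are shown because they hold more E-boxes than those of the rhythmic members. *Lamp1* has 4, at positions -61, -45, -28 and -15, and *Ctsd* has 2, at -245 and -98, the second within TCACGTGA. Neither gene was called rhythmic.
Lamp1: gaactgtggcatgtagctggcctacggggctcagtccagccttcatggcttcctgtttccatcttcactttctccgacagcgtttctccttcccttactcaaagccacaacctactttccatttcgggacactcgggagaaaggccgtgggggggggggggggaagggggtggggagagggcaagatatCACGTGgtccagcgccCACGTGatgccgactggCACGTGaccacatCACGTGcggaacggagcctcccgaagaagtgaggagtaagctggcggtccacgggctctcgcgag
Ctsd: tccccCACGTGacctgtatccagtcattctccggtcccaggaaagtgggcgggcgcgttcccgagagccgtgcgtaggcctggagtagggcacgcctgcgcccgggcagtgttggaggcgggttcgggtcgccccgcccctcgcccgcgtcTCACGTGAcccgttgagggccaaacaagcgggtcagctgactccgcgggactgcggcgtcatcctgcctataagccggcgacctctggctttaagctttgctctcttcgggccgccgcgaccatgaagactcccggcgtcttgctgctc

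E-boxes are bound by the clock factors CLOCK and BMAL1, and their letters also lie within the element bound by TFEB, a regulator of lysosomal genes. The RefSeq table held 30 promoters of 27 of the 33 members, and CACGTG, which reads the same on both strands, occurred in those of 7 genes: *Atg3*, *Atg5*, *Atg7*, *Bnip3*, *Ctsd*, *Ctsl* and *Lamp1*. The windows are set on transcript starts, and that of *Atg7* lies 27969 bases inside the RefSeq gene. Counted by promoter, the letters occurred in 7 of the 30 of members and in 7.15% of the 32851 promoters of the same length. TCACGTGA, which contains it, occurred in *Atg3* and *Ctsd* and in 0.974% of all. On either strand, TTATGTAA (0.938% of all promoters), TTACGTAA (0.119%) and TAGGTCA (2.61%) were not among the letters of the members' promoters. Of the 7 genes with CACGTG, *Bnip3* and *Ctsl* met the rhythm criteria, and *Sqstm1*, *Gabarapl1* and *Wipi1* were called without it in this window.

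Levels were more often highest at ZT2 than at any other time point. The mean of ZT2 was the highest of the 6 in 17 of 33 members (51.5%), against 29.2% of expressed genes, and 0 members had their highest mean at ZT14, against 15.4%. The lowest mean fell on ZT2, ZT6, ZT14 and ZT18 in 7 members each (21.2%), against 21.9%, 16.3%, 15% and 17.8% of expressed genes. Both samples of the highest time point lay above the 10 others in 8 members (24.2%), against 25.7% of expressed genes. Of these, 6 (*Atg2a*, *Atg4d*, *Becn1*, *Ulk2*, *Wipi1* and *Wipi2*) had this peak at ZT2, beside *Gabarapl1* at ZT6 and *Bnip3* at ZT10. *Atg4d* and *Becn1* share exon bases with *Kri1* and *Cntd1*, whose means were also highest at ZT2 (16.1 and 17.9 rpbp). The part of this overlap in the 2 peaks was not tested. Both samples of the lowest time point lay below the 10 others in 5 members (*Atg3*, *Atg7*, *Atg9a*, *Bnip3* and *Map1lc3b*, 15.2%), against 24.9%. Summed over the 33 members, the signal was between 4736 and 5439 rpbp.

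**Figure D4:**
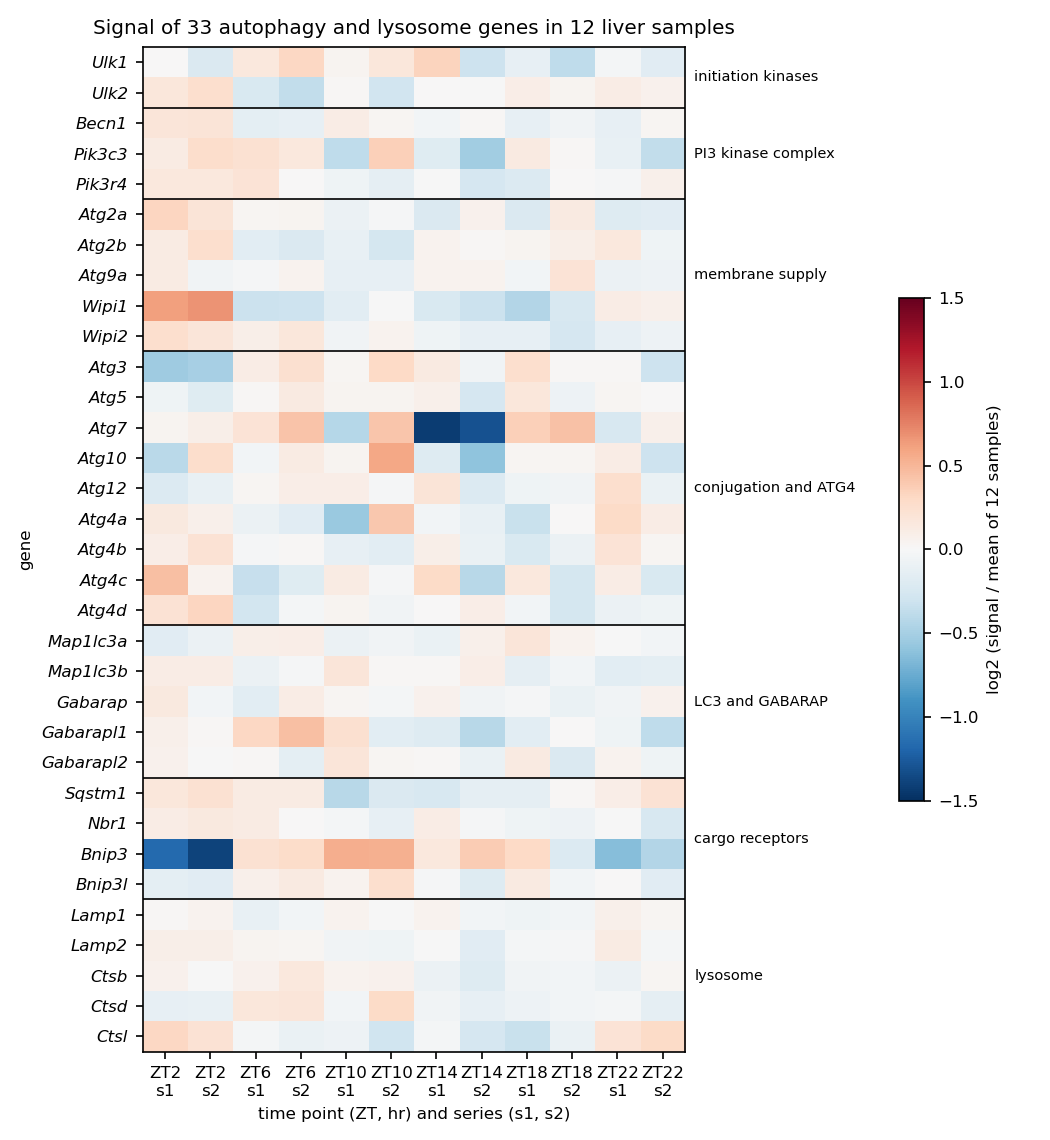
Log2 ratio of each value to the mean of the gene (colour, blue below and red above the mean) for the 33 members (rows, by role) in the 12 samples (columns, by time point with series 1 and 2 side by side). *Bnip3* and *Atg3* are low and *Wipi1* is high in both ZT2 samples, *Atg7* is low in both ZT14 samples, and most other rows are pale.

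In the study's list of libraries, both ZT2 samples have the lowest shares of uniquely mapped sequences, and the part of this in the results was not tested. Summed markers of hepatocytes and Kupffer cells also differed at ZT2, though not every hepatocyte marker moved the same way. The 6 hepatocyte markers summed to 83223 and 86185 rpbp at ZT2 and to between 123342 and 157851 rpbp in the 10 other samples, and *Alb* and *Cps1* among them were rhythmic. This sum is mostly *Alb*, with 50445 and 53126 rpbp at ZT2 and at least 93174 rpbp in the other samples, and *Ttr* and *Tat* were lowest at ZT2 too. *Apoa1* and *Serpina1a* went the other way, with 17423 and 17762 rpbp and 3877 and 3883 rpbp at ZT2, above all other samples. The 7 Kupffer cell and macrophage markers, 6 of them expressed, summed to 600.2 and 600.4 rpbp at ZT2 and to between 296.4 and 482 rpbp in the other samples. *Cd5l* was the marker of these called rhythmic, with a phase of 3.25 hr. The 5 endothelial markers, 5 expressed, stayed between 166 and 200.5 rpbp and the 5 stellate cell markers, 4 expressed, between 227 and 298 rpbp. *Colec11* among the stellate markers was called rhythmic with a phase of 12 hr. Cholangiocyte markers (1 of 4 expressed) summed to 3.8 to 14.1 rpbp, with the highest means at ZT22 and ZT2 (12.2 and 10.6 rpbp). *Sox9*, the expressed one, was called rhythmic with a phase of 22.3 hr. Blood cell markers (2 of 5 expressed) summed to 70.9 to 607 rpbp, most of it *Hbb-b1*. Of the 5 rhythmic members, *Sqstm1*, *Ctsl* and *Wipi1* were highest at ZT2, where the Kupffer cell sum was highest too. *Bnip3* was lowest at ZT2, where the hepatocyte sum was lowest too. The part of these cells in the results was not tested, and in bulk samples fewer cells of a type and less RNA per cell cannot be told apart.

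**Figure D5:**
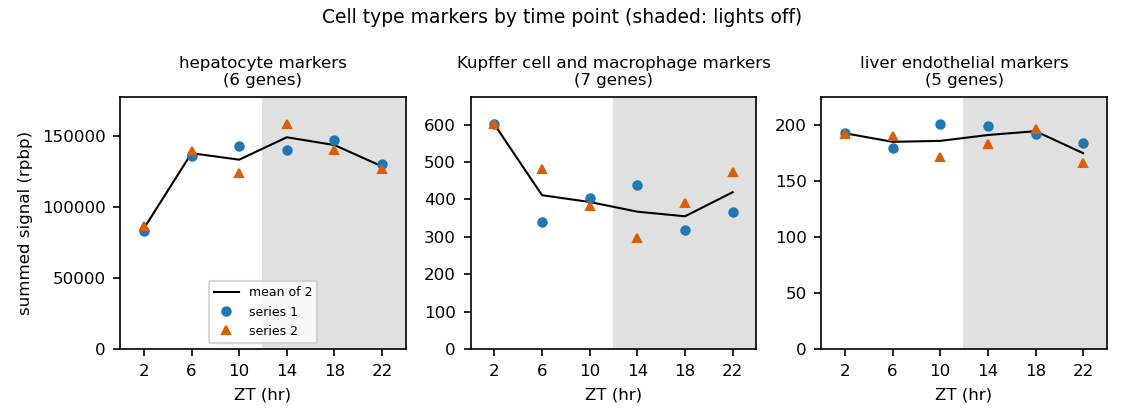
Summed signal (vertical axes, rpbp) of the markers of hepatocytes, Kupffer cells and macrophages, and endothelial cells against time point (horizontal axes, ZT in hr); circles are series 1, triangles series 2, lines the mean of both, and grey marks darkness. The hepatocyte sum, which is mostly *Alb*, is lowest and the Kupffer cell sum highest at ZT2 in both series, while the endothelial sum is between 166 and 200.5 rpbp throughout.

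Between light (ZT2, ZT6 and ZT10) and darkness (ZT14, ZT18 and ZT22), *Wipi2* differed by 0.23 ± 0.05 on the log2 scale (SE, limma adjusted p = 0.0318), and this was the only call among the 33 members. It was lost without any single sample other than ZT10 or ZT18 of series 1 (adjusted p between 0.0552 and 0.0982). In all, 2.27% of expressed genes were higher in light and 3.02% higher in darkness. The differences of *Gabarapl1* (0.36 ± 0.09, adjusted p = 0.0501), *Wipi1* (0.24 ± 0.06, adjusted p = 0.0632) and *Atg7* (0.44 ± 0.13, adjusted p = 0.0748) missed the threshold in limma. *Atg7* was called without the ZT10 sample of series 1 (adjusted p = 0.00565) and with the series as a block (0.0469), *Pik3c3* without the same sample (0.39, adjusted p = 0.043), and *Gabarapl1* in 5 settings (adjusted p between 0.0271 and 0.0495). *Bnip3* was at -0.09 (limma adjusted p = 0.624). Without both ZT2 samples, where light is ZT6 and ZT10 only, it was at 0.47 (limma adjusted p = 0.0286). The sign was positive in 24 of 33 members, and in 55.3% of expressed genes. Between the 2 series, limma called 0 members and 0% of expressed genes at an adjusted p below 0.05. At an unadjusted p below 0.05, the series differed in 418 genes (4.1%) and in 3 members, *Atg7*, *Atg4c* and *Gabarapl2*.

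The rows of the older symbols of the missing genes were read apart from the 33. *Atg13*, which joins the ULK kinases (row *D2Ertd391e*), had 62.4 and 65.9 rpbp at ZT2 and between 35.8 and 49.2 rpbp in the other samples (limma adjusted p = 0.00627 among time points, F24 0.415, permutation p = 0.081). *Atg14*, the subunit that directs the PI3 kinase to autophagy (row *D14Ertd436e*), lay between 12.4 and 18 rpbp with an F24 of 0.184. *Tfeb* (row *Tcfeb*) had 4.88 and 5.56 (ZT2), 5.32 and 7.16 (ZT6), 10.5 and 8 (ZT10), 6.28 and 8.88 (ZT14), 6.52 and 7 (ZT18), and 5.56 and 6.64 rpbp (ZT22). It met the rhythm criteria with an F24 of 0.526 and a phase of 12.1 hr (permutation p = 0.0249, adjusted p = 0.133), at levels around the expression minimum.

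Further genes of the pathway were read from 5 lists of 123 genes, of which 117 were in the table (9 by an older symbol) and 109 were expressed. Of these, 16 were called rhythmic (14.7%), beside the 19.2% of all expressed genes. Among other autophagy genes 6 of 28 were called. *Uvrag*, a partner of Beclin 1, had an F24 of 0.916 and a phase of 11.5 hr, with 12.3 ± 0.820 rpbp at ZT2 and 17.7 ± 0.509 rpbp at ZT14 (adjusted permutation p = 0.0115). *Phb2*, a mitophagy receptor of the inner membrane, *Trp53inp1* and *Zfyve1* had phases of 9.85, 14.2 and 16.3 hr. Among lysosomal hydrolases and membrane proteins 3 of 33 were called, *Sgsh* and *Ctsc* with phases of 1.31 and 23.2 hr and *Hexa* with 10.8 hr. Of the 15 vacuolar ATPase subunits, *Atp6v1d* was called (phase 10.9 hr). Of 22 genes of the mTORC1 and AMPK branch, *Fnip1*, *Mtor* (row *Frap1*) and *Prkag2* were called, all with phases in the light. Among 11 transcription factors tied to these genes, *Foxo1* (F24 0.790, phase 11.4 hr, adjusted permutation p = 0.0227), *Atf4* (phase 23.4 hr) and *Creb1* (phase 17.5 hr) were called.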

How the data were processed

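Poly(A) RNA of 12 liver samples was sequenced from TruSeq libraries. According to the study's methods and its processing notes (CASAVA 1.8, TopHat, mm9), the authors kept uniquely mapped sequences and summed their coverage over the exons of all isoforms, without regard to strand. The deposited signal is this coverage per base pair, which the authors expressed per 10000000 such sequences. It holds no counts, so no count test or counting interval was used. The 3 deposited columns of F24, phase and p-value were not used. Columns headed ZT20 were read as ZT22, the time in the labels.

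The signal was multiplied by 4. F24, phase (peak time in hr) and permutation p (10000 orders, seed 1, smallest possible 0.0001) were computed on the 12 values. Where a series was left out, all 720 orders of the 6 remaining values were used. Python 3.11.15, R 4.3.3 and limma 3.58.1 (trend, Benjamini-Hochberg over 10198 genes) were used, and the scripts were tested on simulated data. Alternatives were a minimum of 16 rpbp or none, size factors, log scales (pseudocounts 1 and 0.1), adjusted p, amplitude from time point means, a series block, and samples or series left out. The members, roles and lists were chosen with earlier results of these data known. All members are named, with values in every sample for those called and for the highest and lowest of each role, and up to 4 called genes of the highest F24 in each further list. Gene places are from GENCODE M1 (mm9) and promoters from RefSeq (GRCm38.p6), which matched 27 members.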

Additional observations from a re-analysis of the deposited data

How the results depend on the processing

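Counts of calls among the 33 members depended on the setting. By the rhythm criteria 5 members were called, 2 with adjusted p, 3 with the amplitude taken from time point means, and 2 with both ZT2 samples left out, an alternative chosen after seeing the data. Leaving out single samples gave 3 to 6 members, and over single samples and whole series the range was 0 to 6 (0 without series 2). Over all expressed genes the count was 1960, 505 with adjusted p, and 286 to 2000 with samples or a series left out. In the further lists it was 16, 2 with adjusted p, 7 with the amplitude from means, and 1 to 20 with samples or a series left out. The limma cosine called 3 members, 1 without the ZT2 samples and 1 to 4 with single samples left out. The test among time points called 6 members, 2 without the ZT2 samples and 3 to 7 with single samples left out. Light against darkness called 1 member, 2 with a minimum of 16 rpbp, 2 with size factors, 2 without the ZT2 samples, and 0 to 3 with single samples left out. The difference between series called 0 members in each setting that was run. The causes of these shifts were not tested. Across genes, the deviations from time point means correlated weakly between samples of one series (15 pairs, r from -0.15 to 0.21, 2 over 0.1). Whether the samples of a series shared handling or a batch cannot be read from this. With the series as a block, the rhythm criteria called 5 members, the cosine 2, the test among time points 4, and light against darkness 2. Without the ZT2 samples, light is ZT6 and ZT10 only, which is another contrast. For *Bnip3* it was 0.47 on the log2 scale and was called, while light minus dark with all samples was -0.09 and not called. *Atg10*, *Atg4a* and *Atg4c* had SDs between samples of a time point of 21.3%, 20.1% and 19.9% of the mean. Small differences in these genes may go undetected. Low level and large spread did not always go together, since the SD was 7.59% in *Pik3r4* and 6.19% in *Atg2b*.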
